A study of Mus musculus with 48 samples.

Results

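The 28 genes described here encode the enzymes of the tricarboxylic acid (TCA) cycle, the enzymes and carriers that refill it, and the malate-aspartate shuttle. They were taken by gene symbol from the count table of bulk RNA-seq of mouse subcutaneous inguinal white adipose tissue (sWAT). All 28 were found among 54532 listed genes, and all 28 were among the 19977 genes that passed the expression filter and were tested. They comprise 17 enzymes of the cycle, 5 genes of anaplerosis and 6 genes of the shuttle.

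The 48 libraries came from mice labelled C57BL/6 and aged 8 months, male C57BL/6J by the methods of the study, that were fed ad libitum (AL) or in 2 meals a night (TAN), with 4 libraries of each of the 2 diets at each of 6 times of day labelled 8AM, 12PM, 4PM, 8PM, 12AM and 4AM. TAN mice had food only in 2 nightly windows, the first opening shortly after lights-off and the second closing shortly before lights-on, and AL mice always had food. Lights came on at the 8AM label and went off at the 8PM label. The study reports that TAN mice also ate modestly less than AL mice, so meal timing and food intake cannot be told apart here. The comparison asks how the expression of oxidative and refilling enzymes in sWAT differed between these diets, and when.

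Total counts ranged from 15636378 to 29913310 in AL libraries and from 15685080 to 25440243 in TAN libraries. Adipocyte markers were high in every library (Adipoq at 544 to 6851 CPM, counts scaled to library size by TMM factors), although the series' own design text names stromal vascular cells and the methods whole tissue. Ucp1, the uncoupling protein of thermogenic fat, was listed at 0 in 22 of 48 libraries and reached at most 3.18 CPM. The 10 lymphocyte markers summed to between 9.36 and 2286 CPM, and the 10 skeletal muscle markers to between 5.02 and 6790 CPM, so that libraries of the same group differed widely in both. In AL mice the clock gene Dbp was highest at the 4PM label (105 ± 19.3 CPM, SD, n = 4) and Arntl at the 8AM label (32.3 ± 9.25 CPM). At 4AM, 2 AL libraries stood apart from their group. AL replicate 1 had 71.9 CPM of Dbp and AL replicate 3 had 69.2 CPM of the clock gene Nr1d1 and the highest muscle markers of the series. A supplementary table of the study lists 20 genes in these 48 libraries, and for 48 of 48 the values fitted a library 12 h away under the same animal name, for 0 of 48 the one at the same time. Times below are those of the sample labels. The contrasts hold the same libraries under either labelling.

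In the mitochondrial matrix, citrate synthase joins acetyl-CoA to oxaloacetate, and the following steps release carbon dioxide and pass electrons to NAD+ and ubiquinone until oxaloacetate is formed again. Intermediates drawn off for synthesis, such as citrate for fatty acids in adipocytes, are replaced by anaplerotic reactions, foremost the carboxylation of pyruvate. The malate-aspartate shuttle carries the reducing power of cytosolic NADH into the mitochondrion with a pair of malate dehydrogenases, a pair of aspartate aminotransferases and their carriers.

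Many nuclear genes of mitochondrial enzymes share short promoter motifs. The promoters of 3 members are shown because these genes differed between the diets and hold such motifs. RefSeq promoters on GRCm38.p6, 250 bases before to 50 bases after a start site, were matched for 25 of the 28 members, not for Idh3a, Sdhc and Me2. The capitals mark the letters searched, on both strands: TCAAGGTCA (an oestrogen-related receptor element), GCGCATGC (an NRF1 element), CACGTG (an E-box) and CCGGAAG (an ETS element).
Sdhb, chr4:140961021-140961320, plus strand: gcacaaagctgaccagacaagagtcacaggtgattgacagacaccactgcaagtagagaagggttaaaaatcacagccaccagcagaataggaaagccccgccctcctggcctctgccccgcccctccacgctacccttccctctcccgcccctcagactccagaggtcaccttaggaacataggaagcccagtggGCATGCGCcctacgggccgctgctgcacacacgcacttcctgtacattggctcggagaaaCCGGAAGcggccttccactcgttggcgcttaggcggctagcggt
Sdhd, chr9:50603800-50604099, minus strand: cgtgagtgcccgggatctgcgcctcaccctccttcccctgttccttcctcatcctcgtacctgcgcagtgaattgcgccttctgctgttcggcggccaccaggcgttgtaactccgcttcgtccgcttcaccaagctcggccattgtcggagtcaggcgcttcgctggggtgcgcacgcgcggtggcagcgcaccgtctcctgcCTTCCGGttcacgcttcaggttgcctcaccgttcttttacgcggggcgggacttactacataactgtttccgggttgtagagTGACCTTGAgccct
Pcx, chr19:4510222-4510521, plus strand: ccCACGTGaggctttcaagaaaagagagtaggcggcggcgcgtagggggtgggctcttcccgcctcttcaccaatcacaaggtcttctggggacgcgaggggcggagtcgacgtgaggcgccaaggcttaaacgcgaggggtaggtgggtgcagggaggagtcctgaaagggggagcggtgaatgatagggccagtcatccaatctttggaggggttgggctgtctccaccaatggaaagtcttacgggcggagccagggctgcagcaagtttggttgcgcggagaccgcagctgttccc
The Sdhb window held the NRF1 element 54 bases before the start and an ETS element 6 bases after it. In Sdhd the ETS element lay 46 bases before the start and the receptor element 36 bases after it. In Pcx the E-box lay at the edge of the window, 248 bases before the start. Across the members, CCGGAAG was held by 6 of 25 (24%) against 9.93% of 27025 genes, GCGCATGC by 3 (12%) against 3.05%, CACGTG by 3 (12%) against 8.09%, and TCAAGGTCA by 1 (4%) against 0.466%. A match describes letters in a window and not a bound site.

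Levels between genes were compared as CPM per kilobase of gene model. In AL mice the highest level was that of Mdh1, the cytosolic malate dehydrogenase, at 262 ± 86.8 CPM per kb (SD, n = 24), followed by Sdha (156 ± 32.9), Sdhd (152 ± 47.5) and Sdhb (120 ± 33.9), subunits of succinate dehydrogenase. Pcx, pyruvate carboxylase, stood at 93.7 ± 46.9 CPM per kb and Cs, citrate synthase, at 86.6 ± 22.4, neighbours that did not differ beyond their spread. The aspartate side of the shuttle was low: 7.69 ± 2.32 CPM per kb for Got2 and 5.96 ± 1.47 for Got1, the mitochondrial and cytosolic aspartate aminotransferases, and 4.00 ± 1.47 for Slc25a12 and 0.789 ± 0.353 for Slc25a13, the aspartate-glutamate carriers. Slc25a13 fell to 2 counts in 1 library. Me3, a mitochondrial malic enzyme, was the lowest at 0.0962 ± 0.0914 CPM per kb, with no count in at least 1 library, and its differences below carry large errors.

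**Figure D1:**
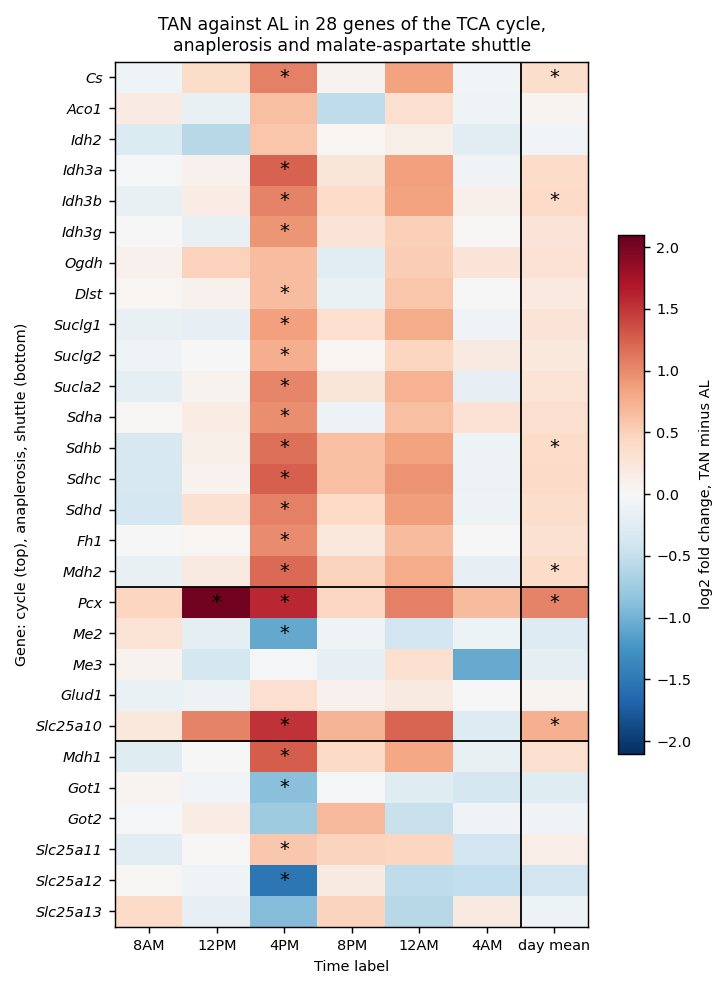
Log2 fold change of TAN against AL (colour) for the 28 genes (vertical axis; cycle, anaplerosis and shuttle separated by lines) at each time label and in the mean over the day (horizontal axis), with an asterisk at an adjusted p under 0.05. The 4PM column holds 21 of the asterisks at single time points and 12PM the other, that of Pcx.

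At 4PM, the label 4 h before lights-off, most of the cycle was higher in TAN than in AL mice. Lymphocyte and adipocyte marker levels also differed between the diets at this label. With the lymphocyte level as a term 0 members were called, as given below. Of the 28 members 18 were higher and 3 lower in TAN mice (edgeR quasi-likelihood test, Benjamini-Hochberg adjusted p under 0.05 over all tested genes), against 6.54% and 8.77% of all tested genes, and 7 were not called. The 17 cycle genes gave 14 higher and 0 lower, the 5 anaplerotic genes 2 higher and 1 lower, and the 6 shuttle genes 2 higher and 2 lower. The median log2 fold change was 0.99 in the cycle, 0.35 in anaplerosis and -0.81 in the shuttle, beside -0.09 over all genes. With a log2 fold change beyond 1 as well, 11 members were higher and 2 lower, against 2.93% and 7.43% of all genes. The libraries of the diets did not overlap in 22 members that were above AL and 4 that were below it, against 11.3% and 19.2% of all genes.

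Mdh2 (ENSMUSG00000019179, chromosome 5, 135778480 to 135790398 in the count table's annotation), the mitochondrial malate dehydrogenase that closes the cycle, had the smallest adjusted p. It was at 209, 232, 191 and 203 CPM in AL mice and at 456, 396, 453 and 524 CPM in TAN mice. Every TAN library was above every AL library, and the log2 fold change was 1.19 ± 0.23 (SE, n = 4 a group, edgeR adjusted p = 0.00618). Idh3b, a subunit of the NAD-dependent isocitrate dehydrogenase, was at 189, 204, 151 and 191 CPM in AL and at 454, 281, 387 and 332 CPM in TAN mice. Its ranges did not overlap either, and the log2 fold change was 1.05 ± 0.24 (edgeR adjusted p = 0.00921).

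The other called steps of the cycle lay between 1.57-fold and 2.39-fold higher in TAN mice, with edgeR adjusted p from 0.0111 to 0.0369. At the entry, Cs rose by 1.06 on the log2 scale. The other subunits of NAD-dependent isocitrate dehydrogenase rose by 1.23 (Idh3a) and 0.92 (Idh3g), and Dlst, the succinyl-transferring subunit of the 2-oxoglutarate dehydrogenase complex, by 0.65. Succinyl-CoA ligase rose in its shared subunit Suclg1 (0.87), its ATP-forming subunit Sucla2 (1.03) and its GTP-forming subunit Suclg2 (0.76). The 4 subunits of succinate dehydrogenase, the flavoprotein Sdha (0.97), the iron-sulfur protein Sdhb (1.16) and the membrane anchors Sdhc (1.26) and Sdhd (1.06), and the fumarase Fh1 (0.99) rose to a like extent. The remaining 3 cycle genes were not called: Aco1, the cytosolic aconitase that doubles as an iron regulatory protein, at 0.64 ± 0.31 (SE, adjusted p = 0.148), Idh2, the NADP-dependent isocitrate dehydrogenase of mitochondria, at 0.58 ± 0.23 (adjusted p = 0.0693), and Ogdh, the first subunit of the 2-oxoglutarate dehydrogenase complex, at 0.65 ± 0.26 (adjusted p = 0.0767, all by edgeR).

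Anaplerotic genes did not move together at 4PM. Pcx (ENSMUSG00000024892, chromosome 19, 4510472 to 4621752) was at 353, 377, 317 and 374 CPM in AL and at 776, 1267, 660 and 1358 CPM in TAN mice, all TAN libraries above all AL libraries (log2 fold change 1.58 ± 0.42, SE, edgeR adjusted p = 0.0156). Slc25a10, the dicarboxylate carrier that exchanges malate and succinate for phosphate, was at 141 to 245 CPM in AL and 355 to 621 CPM in TAN mice, 1.51 ± 0.43 higher on the log2 scale (edgeR adjusted p = 0.0204). Me2, the mitochondrial NAD-dependent malic enzyme, was lower, at 53.2 to 66.2 CPM in AL and 19.9 to 31.5 CPM in TAN mice (-1.08 ± 0.34, edgeR adjusted p = 0.0312). Glud1, glutamate dehydrogenase, at 0.35 ± 0.14 (edgeR adjusted p = 0.0802), and Me3, at -0.05 ± 1.03 (edgeR adjusted p = 0.984), were not called.

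In the shuttle the malate genes were above and the aspartate genes below 0 at 4PM. The split did not hold with lymphocyte marker level as a term, where Got2 (0.0033) and Slc25a13 (0.23) were above 0 and Slc25a12 (-0.76) and Got1 (-0.49) below, none of them called. Mdh1 was at 507, 522, 421 and 415 CPM in AL and at 1442, 816, 950 and 1087 CPM in TAN mice (log2 fold change 1.26 ± 0.33, SE, edgeR adjusted p = 0.0151). Slc25a11, the malate-2-oxoglutarate carrier, rose by 0.57 ± 0.17 (edgeR adjusted p = 0.0238). Slc25a12 was at 31.9, 28.3, 37.2 and 29.3 CPM in AL and at 6.93, 9.58, 15.3 and 10.3 CPM in TAN mice, the largest fall among the members (-1.51 ± 0.42, edgeR adjusted p = 0.0188). Got1 was at 14.1, 14.7, 21.6 and 14.1 CPM in AL and at 9.0, 6.98, 9.79 and 7.81 CPM in TAN mice (-0.87 ± 0.28, edgeR adjusted p = 0.0328). Got2 at -0.75 ± 0.35 (edgeR adjusted p = 0.132) and Slc25a13 at -0.91 ± 0.55 (edgeR adjusted p = 0.247) were not called, although the ranges of Got2 did not overlap (33.1 to 45.7 CPM in AL, 13.5 to 31.5 CPM in TAN mice).

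**Figure D2:**
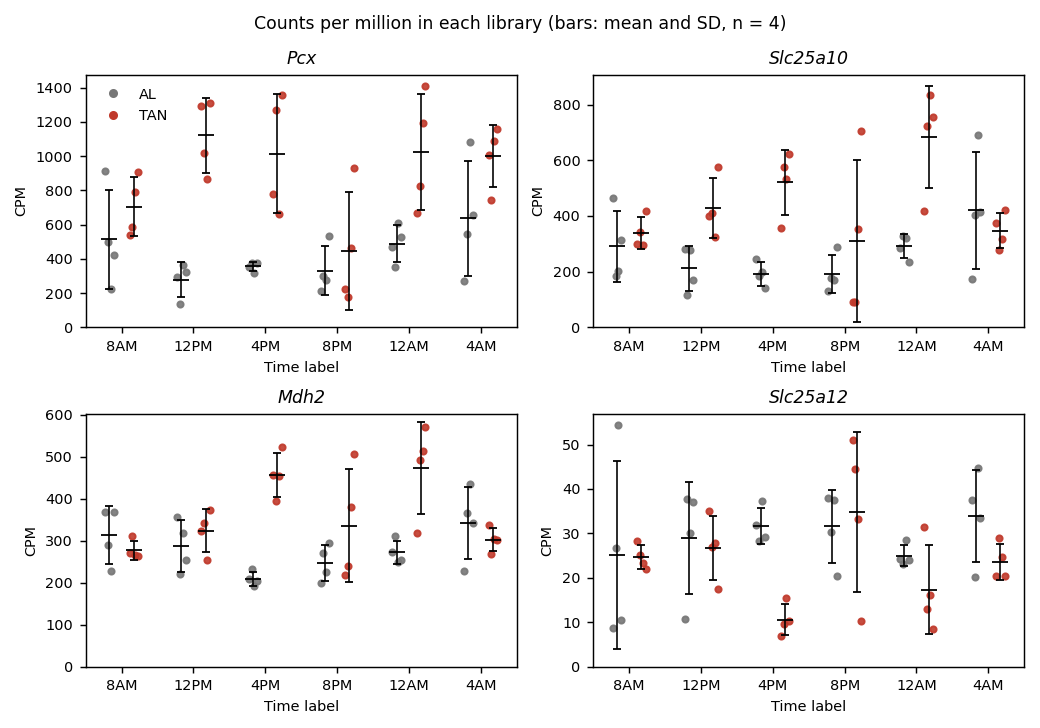
CPM (vertical axis, from 0) of 4 genes in each library against the time label, AL in grey and TAN in red, with the mean and SD of 4 libraries. At 4PM the diets do not overlap in any of the 4 genes, and at 12PM Pcx stands at 866 to 1309 CPM in TAN against 135 to 364 CPM in AL mice.

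Markers of other cells moved with diet at the same label. At 4PM the summed lymphocyte markers were between 933 and 1665 CPM in AL libraries and between 10.2 and 301 CPM in TAN libraries, and 3 of 10 were called lower. None of the 10 was at 0 in all libraries of either group. The summed adipocyte markers were between 18102 and 24810 CPM in AL and between 36572 and 62865 CPM in TAN libraries, with 1 of 8 called higher. Of 6 beige fat markers 3 were called higher (median log2 fold change 2.08), with sums of 46.0 to 109 CPM in AL and 119 to 255 CPM in TAN libraries. Of 6 macrophage markers 1 was called lower and none was above 0 (median -1.01), with sums of 1310 to 2132 CPM in AL and 345 to 1501 CPM in TAN libraries. Of 3 tested epithelium markers 1 was called lower, with sums over the list of 3.19 to 6.47 CPM in AL and 0 to 1.78 CPM in TAN libraries, and of 6 stroma markers 0 were called. The part of these cells in the 4PM differences was not tested. The skeletal muscle markers were between 12.4 and 25.0 CPM in AL and between 5.02 and 21.6 CPM in TAN libraries. With the mean log2 CPM of the lymphocyte markers as a term, 0 members and 0 genes in all were called at 4PM by edgeR, the cycle's median log2 fold change was 0.46 and 16 of 17 cycle genes stayed above 0, while the shuttle's median was 0.12, of opposite sign to that without the term. With the adipocyte markers as a term, Cs, Idh3b and Mdh2 were called among 241 genes in all, and the cycle and shuttle medians were 0.58 and -0.21. With both lymphocyte and muscle markers as terms 0 members were called. At 4PM neither the lymphocyte nor the adipocyte sums overlapped between the diets. These fits therefore cannot tell diet and marker level apart at this label. In bulk tissue, fewer cells of a type and less RNA per cell cannot be told apart either, and the part of lymphocyte RNA in the 4PM differences was not tested. Libraries of a group carry separate names in the labels, and p-values measure the spread between these libraries.

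The count at 4PM also depended on single libraries. It was 2 members (Idh3b and Mdh2, among 408 genes in all) without AL replicate 3, 7 (among 647) without TAN replicate 1 and 12 (among 1321) without AL replicate 4, and between 15 and 21 without any of the others. The sign of each of the 21 effects was the same in every one of these fits.

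**Figure D3:**
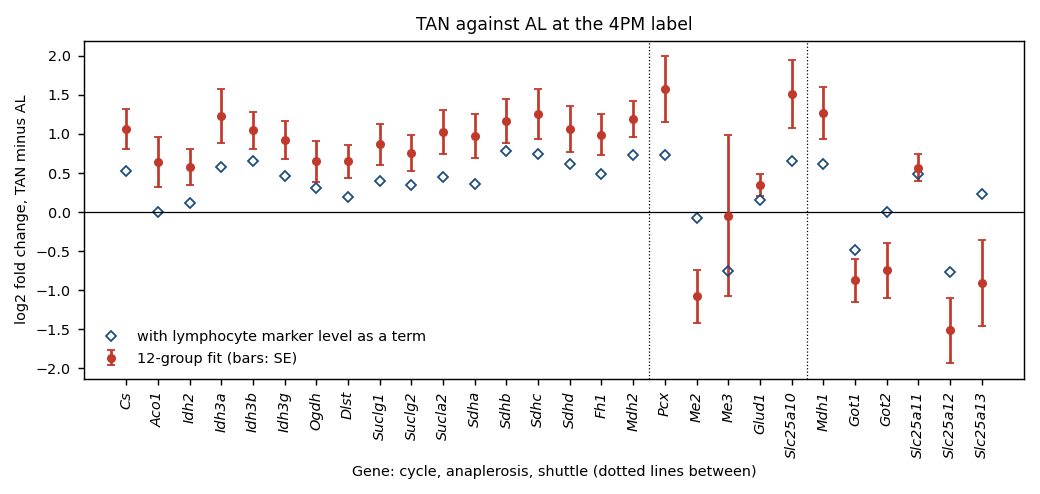
Log2 fold change of TAN against AL at 4PM (vertical axis) for each of the 28 genes (horizontal axis), from the fit of 12 groups (filled, with SE) and from the fit with the lymphocyte marker level as a term (open). The open symbols lie nearer 0 for most genes, with Slc25a12 at -0.76 against -1.51.

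**Figure D4:**
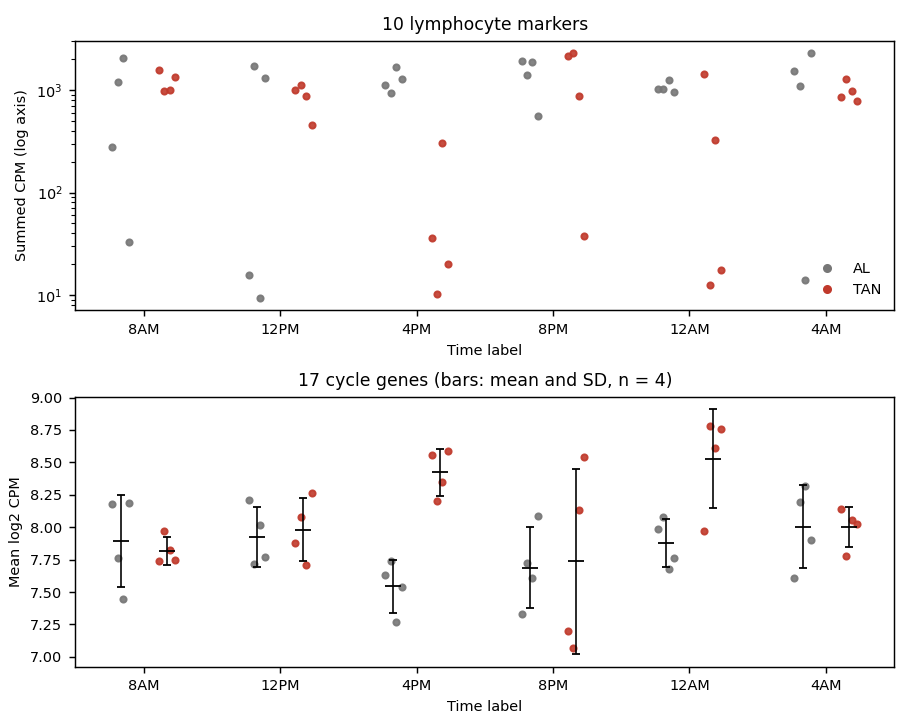
Summed CPM of 10 lymphocyte markers (upper panel, log axis) and mean log2 CPM of the 17 cycle genes (lower panel, with mean and SD of 4 libraries) in each library against the time label, AL in grey and TAN in red. At 4PM the lymphocyte markers are lower and the cycle higher in TAN mice without overlap, and TAN replicate 1 at 12AM lies just above the AL libraries in the upper panel and among them in the lower.

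At 12PM a single member was called. Pcx stood at 292, 135, 364 and 323 CPM in AL and at 1295, 1017, 866 and 1309 CPM in TAN mice, a log2 fold change of 2.03 ± 0.43 (SE, edgeR adjusted p = 0.0339), 4.07-fold. Of all tested genes 0.0851% were called higher and 0.00501% lower at this label. The 4 TAN libraries exceeded every AL library of this label, but the edgeR adjusted p lay between 0.0325 and 0.355 when 1 of the 8 libraries was left out, and of these fits the call held only in the one without TAN replicate 3. Lymphocyte markers at 12PM were at 9.36 and 15.7 CPM in a pair of AL libraries and at 459 to 1726 CPM in the other 6, and with their level as a term both Pcx (2.46, edgeR adjusted p = 4.21e-05) and Slc25a10 (1.58, edgeR adjusted p = 0.0142) were called. Muscle markers reached 1680 CPM in TAN replicate 1 and 2788 CPM in AL replicate 3, and Pcx was not called with their level as a term. Without the term Slc25a10 was at 116 to 281 CPM in AL and 326 to 577 CPM in TAN mice (1.03 ± 0.42, edgeR adjusted p = 0.599). Idh2 was the member with the lowest fold change (-0.59 ± 0.23, edgeR adjusted p = 0.582), at 140 to 211 CPM in AL and 87.9 to 136 CPM in TAN mice. Thus 2 members lay above and 1 below the AL range, against 3.04% and 2.12% of all genes. The cycle's median log2 fold change was 0.08.

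At 12AM, after the first feeding window, 0 members were called by edgeR, and by limma voom, against 0.125% of all genes called higher and 0.0250% lower. Unadjusted p fell under 0.05 for 17 members, all higher in TAN mice, against 8.00% of all genes higher and 9.48% lower. DESeq2 called 5 members (Cs, Idh3b, Suclg1, Sdhb and Mdh2) among 536 genes in all. All 17 cycle genes had a fold change above 0, with a median of 0.73 on the log2 scale beside -0.14 over all genes. The diets did not overlap in 5 members above AL, against 4.10% of all genes, and in 0 below, against 5.16%. These 5 were Cs, Idh3b, Mdh2, Pcx and Slc25a10. Slc25a10 had the largest fold change, at 285, 326, 322 and 234 CPM in AL and 419, 724, 834 and 756 CPM in TAN mice (1.22 ± 0.43, SE, edgeR adjusted p = 0.157), and Slc25a13 the lowest (-0.58 ± 0.55, adjusted p = 0.614). TAN replicate 1 was the lowest TAN library for Cs, Idh3b, Mdh2 and Sdhb, with Mdh2 at 317 CPM beside 493, 514 and 570 CPM, and its lymphocyte markers summed to 1425 CPM beside 12.7 to 327 CPM in the other TAN libraries. Without it 9 members were called, all in the cycle except Slc25a11, and the calls over all genes went from 25 higher and 5 lower to 871 in all.

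The other labels gave no member either. At 8AM 0 members were called, also by DESeq2 and limma voom and at an unadjusted p under 0.05, against 0.0100% of all genes higher and 0.00501% lower, and 6.58% in either direction without adjustment. Fold changes ran from -0.37 (Sdhd, ± 0.29 SE) to 0.45 (Pcx, ± 0.41) on the log2 scale. At 8PM, when 3.76% of all genes were called higher and 7.91% lower, 0 members were called by edgeR, 3 were higher at an unadjusted p under 0.05, against 9.99% of all genes, and DESeq2 and limma voom, which called 3197 and 3713 genes in all, each called Slc25a11 (edgeR 0.46 ± 0.17, adjusted p = 0.0614). The extremes were Slc25a10 (0.71 ± 0.42, edgeR adjusted p = 0.282) and Aco1 (-0.53 ± 0.31, edgeR adjusted p = 0.278). The 4 TAN libraries at 8PM were widely spread, with Mdh2 at 218, 240, 380 and 506 CPM, and their lymphocyte markers ran the other way, at 2126, 2286, 870 and 37.8 CPM. At 4AM 0 members were called by edgeR, DESeq2 and limma voom, against 0% of all genes in either direction, and Slc25a11 alone was lower at an unadjusted p under 0.05 (-0.40 ± 0.17), against 1.74% of all genes. The extremes there were Pcx (0.66 ± 0.41) and Me3 (-1.06 ± 1.03), and the latter took the opposite sign without AL replicate 3.

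In the mean over the day, 6 members were higher in TAN mice and 0 lower, against 2.68% and 2.74% of all genes. Pcx rose from 434 to 886 CPM (log2 fold change 1.04 ± 0.17, SE, n = 24 a diet, edgeR adjusted p = 0.000157) and Slc25a10 from 266 to 438 CPM (0.74 ± 0.17, edgeR adjusted p = 0.00990). The 4 cycle genes were Mdh2 (0.38 ± 0.09, edgeR adjusted p = 0.0123), Idh3b (0.40 ± 0.10, edgeR adjusted p = 0.0133), Cs (0.37 ± 0.10, edgeR adjusted p = 0.0298) and Sdhb (0.39 ± 0.11, edgeR adjusted p = 0.0382). Pcx was above AL in the group means of all 6 time labels. The 22 members not called ran from -0.40 (Slc25a12) to 0.41 (Sdhc). The same 6 genes were called with the lymphocyte markers as a term, where Pcx was at 0.92 (edgeR adjusted p = 3.05e-05). Only Pcx was called without all libraries of replicate 2, of replicate 3 or of replicate 4. Without the 8 libraries whose muscle markers summed to over 400 CPM, only Pcx and Slc25a10 were called.

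The TAN effect differed between the time labels in 3 members, Slc25a11 (F test on 5 degrees of freedom, edgeR adjusted p = 0.0197), Mdh2 (edgeR adjusted p = 0.0204) and Sdhb (edgeR adjusted p = 0.0384), against 8.98% of all genes. This count is near that share and is not read as a result about the members as a set. Slc25a11 was 0.57 higher at 4PM and 0.40 lower at 4AM on the log2 scale. Mdh2 went from -0.17 at 4AM and -0.16 at 8AM to 1.19 at 4PM, and Sdhb from -0.33 at 8AM to 1.16 at 4PM. None of the 3 was called without the libraries of replicate 3, or of replicate 4. For Pcx the difference between labels was not called (edgeR adjusted p = 0.161).

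Within a diet, 13 members varied over the labels in TAN mice, against 23.0% of all genes, and 0 in AL mice, against 0.0551%. In AL mice 3 members passed an unadjusted p under 0.05, against 6.67% of all genes, and DESeq2 and limma voom also called 0. The 13 were Cs, Aco1, Idh3b, Idh3g, Dlst, Sdhb, Sdhc, Fh1, Mdh2, Mdh1, Got2, Slc25a11 and Slc25a12, with edgeR adjusted p from 0.0115 to 0.0457. The distance from the lowest to the highest group mean was 1.0 on the log2 scale in the median member in TAN and 0.52 in AL mice, and it was larger in TAN mice in 27 of the 28 members. In TAN mice 18 of the 28 members had their highest group mean at 12AM, among them 14 of the 17 cycle genes with Mdh2, Idh3b, Sdhb and Fh1, and Mdh1, Slc25a10, Slc25a11 and Glud1 outside the cycle. The other 3 cycle genes, Cs, Idh2 and Ogdh, were highest at 4PM. The lowest TAN mean lay at 8PM in 11 members and at 8AM in 9, and Slc25a12, Got1, Got2 and Me2 were lowest at 4PM. In AL mice 16 members, among them 14 cycle genes, had their lowest mean at 4PM and 17 their highest at 4AM, so the 4PM contrast set TAN levels against the lowest AL label for most of the cycle, though no member's change over time in AL mice was called. The 4AM means include AL replicate 3, with 6790 CPM of muscle and 13.9 CPM of lymphocyte markers. It was the highest of its group for Cs (920 CPM), Mdh2 (435 CPM) and Pcx (1080 CPM), but not for Sdhb, Sdhc, Sdhd or Fh1. With the lymphocyte markers as a term 3 members varied in TAN mice, among 3734 genes in all. Without the libraries of replicate 2, or of replicate 3, the count was 0, among 238 and 1308 genes in all. A difference in this variation between the diets was called only for Slc25a11, Mdh2 and Sdhb, the test given above.

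Pairs of members that serve a like step were compared as ratios within a library, on the log2 scale, with a two-sided permutation test of the mean difference over the day (100000 resamples within time labels, adjusted over 5 pairs). The ratio of Idh3a to Idh2, the NAD-dependent against the NADP-dependent mitochondrial isocitrate dehydrogenase, rose from 1.08 ± 0.26 (SD, n = 24) in AL to 1.5 ± 0.45 in TAN mice, a difference of 0.42 (permutation adjusted p = 0.000200). The difference was above 0 at all 6 labels. At 12PM the ratios were 1.13, 1.17, 0.92 and 1.18 in AL and 2.17, 1.85, 1.18 and 1.85 in TAN mice, and at 4PM 1.20, 0.88, 0.99 and 0.97 in AL and 1.60, 1.37, 1.64 and 1.96 in TAN mice. The diets did not overlap at these labels, at 12PM by a narrow margin, and overlapped at the other 4. In CPM, Idh3a at 12PM was 316 to 463 in AL and 279 to 491 in TAN mice, overlapping, while Idh2 did not overlap. A ratio within a library still depends on the mix of cells. In TAN libraries at 8PM it was 0.76, 0.20, 1.48 and 1.51, with lymphocyte markers at 2126, 2286, 870 and 37.8 CPM. For the AL ratios at 12PM the markers were at 15.7, 1726, 9.36 and 1300 CPM, without such an order. Marker levels were not used as terms for the ratios, and their part was not tested.

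For the other 4 pairs the mean difference over the day did not pass the test. Sucla2 to Suclg2, the ATP-forming against the GTP-forming subunit of succinyl-CoA ligase, differed by 0.06 (permutation adjusted p = 0.345), yet without overlap at 3 labels: higher in TAN mice at 4PM (0.71 to 0.83 in AL, 0.97 to 1.14 in TAN) and 12AM (0.65 to 0.79 in AL, 0.84 to 1.13 in TAN), and lower at 4AM (0.77 to 1.32 in AL, 0.67 to 0.76 in TAN). These differences at single labels were not tested. Mdh1 to Mdh2 differed by -0.04 (permutation adjusted p = 0.549), Got1 to Got2 by -0.16 (0.345 likewise) and Slc25a12 to Slc25a13 by -0.21 (0.345), with overlap at all 6 labels in each pair. At 4PM, where both genes of the Got pair had fold changes below 0, their ratio was -1.37 ± 0.46 in TAN against -1.31 ± 0.26 in AL mice (SD, n = 4). Slc25a13 at 4PM was at 5.19, 3.99, 4.82 and 3.08 CPM in AL and 1.82, 1.06, 3.87 and 1.84 CPM in TAN mice, and its ratio with Slc25a12 was 2.33 ± 0.55 in TAN against 2.88 ± 0.26 in AL mice.

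**Figure D5:**
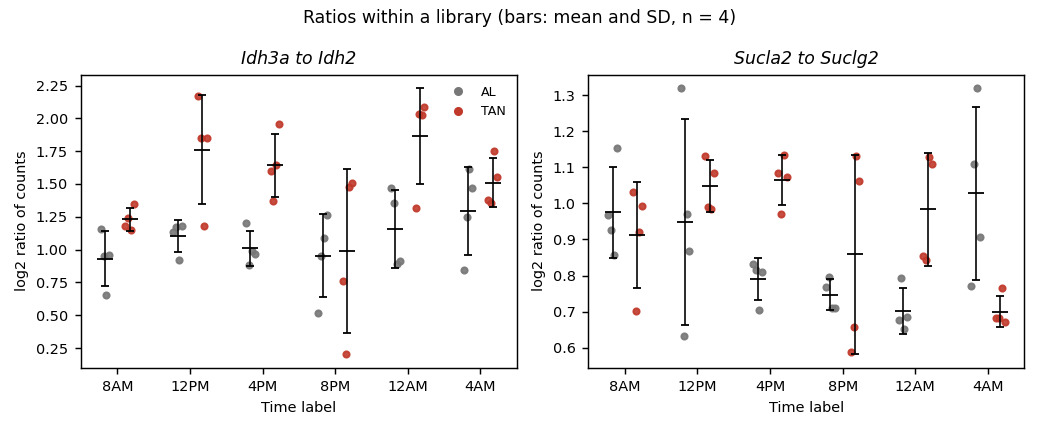
Log2 ratio within a library (vertical axis) of Idh3a to Idh2 (left) and of Sucla2 to Suclg2 (right) against the time label, AL in grey and TAN in red, with mean and SD of 4 libraries. Idh3a to Idh2 is higher in TAN mice without overlap at 12PM and 4PM, and Sucla2 to Suclg2 is above AL at 4PM and 12AM and below it at 4AM.

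Other genes of these routes were read from lists. Of 25 genes that feed, drain or assemble the cycle, 14 were higher and 0 lower at 4PM, against 6.54% and 8.77% of all genes. In the mean over the day 11 were higher and 1 lower, against 2.68% and 2.74%. At 12PM 2 were higher, against 0.0851% of all genes, and at 8PM 1 was lower, against 7.91%. The latter was Nnt (edgeR adjusted p = 0.0401), a gene with few counts from which no change in function can be read. It had 0 to 2 counts in TAN and 8 to 14 counts in AL libraries, and at most 30 counts in any library of the series. The genes named next were chosen after their values were seen. Slc25a1, the mitochondrial citrate carrier, was higher by 2.39 at 12PM and 2.41 at 4PM on the log2 scale (edgeR adjusted p = 0.0169 and 0.00618), and Acly, which cleaves citrate to cytosolic acetyl-CoA, by 3.02 and 3.01 (edgeR adjusted p = 0.00704 and 0.00600). Me1, the cytosolic malic enzyme, rose by 3.15 at 4PM (edgeR adjusted p = 0.00618), in a direction opposite to its mitochondrial relative Me2. The pyruvate carrier subunits Mpc1 (1.88) and Mpc2 (1.69) and the pyruvate dehydrogenase subunits Pdha1 (1.67), Pdhb (1.77), Dlat (1.37) and Pdhx (1.27) were called higher at 4PM too.

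All 12 listed subunits of the respiratory chain and ATP synthase were higher at 4PM, 3 at 8PM and 9 in the mean over the day, with 0 lower. Over all genes 6.54%, 3.76% and 2.68% were called higher there. The median log2 fold change of the 12 subunits at 4PM was 1.08. Of 10 transcriptional regulators 1 was called at 4PM, higher, against 6.54% of all genes. This was Esrra, the oestrogen-related receptor alpha, higher by 1.06 ± 0.33 (SE, edgeR adjusted p = 0.0293). Ppargc1a, a coactivator of mitochondrial genes, was the 1 called at 8PM, where it was lower (-1.56 ± 0.49, edgeR adjusted p = 0.0341), against 7.91% of all genes. Both counts are near the shares of all genes and are not read as a result about the regulators. The median log2 fold change of the 10 regulators was -0.0013 at 4PM and -0.28 at 8PM. These lists share the 4PM libraries, and the marker levels there, with the members. The lists were also chosen with earlier results of these data known, so their counts beside the shares of all genes are only descriptive.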

How the data were processed

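Poly-A RNA of 48 sWAT libraries was sequenced by the authors, and the deposited table holds raw counts per Ensembl gene, not normalized. The submitters' processing notes name TopHat 1.3.3, DESeq2 1.20.0, edgeR and limma and the builds mm9, mm10 and GRCm38, without roles. Which tool counted the reads, and whether strand was used, is not given in the sources used here, so genes overlapping on opposite strands cannot be told apart. A deposited file of FPKM averaged per group was not used, and 0 columns of sample values were left aside. No library was identical to another.

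Counts were tested in R 4.3.3 with edgeR 4.0.16 (filterByExpr with a minimum count of 10, TMM, robust quasi-likelihood F test) on 12 groups of diet and time. P-values were Benjamini-Hochberg adjusted over 19977 genes, and a gene was called at an adjusted p under 0.05. The mean over the day averages the 6 contrasts. Tests over time have 5 degrees of freedom. Mean values are CPM, and log2 CPM used a prior count of 2. CPM per kb divides by the gene length in the table. Ratios within a library were compared by a permutation test. Total counts had a median of 21357700 in AL and 20034300 in TAN libraries, and the members with few counts have the largest errors.

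Alternatives were other filters, RLE size factors, leaving out mitochondrially encoded genes, DESeq2 1.42.0, limma voom (limma 3.58.1), a replicate block, marker levels as terms, separate fits per time and leaving out each library. Those without libraries that stood apart were chosen after seeing the data. The code was tested on simulated data. The members and lists were chosen with earlier results of these data known. All members were accounted for. Results on some listed genes that are not members are not reported here. Those called were given with their values, with the extremes where none was called, and library values for up to 2 called members a time and for the pairs described.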

Additional observations from a re-analysis of the deposited data

Results flagged for a closer look

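Of 144 sets of 4 libraries (a gene, ratio or group level in 1 diet at 1 time), 7 had 1 library far from the other 3, and chance gives about 1 in 20. Mdh2 was at 311 CPM in TAN replicate 2 at 8AM, beside 263 to 271 CPM in the others. The log2 ratio of Mdh1 to Mdh2 was 1.66 in TAN replicate 1 at 4PM, beside 1.04 to 1.07. The ratio of Slc25a12 to Slc25a13 was 3.54 in TAN replicate 2 at 4AM, beside 2.94 to 2.95, and that of Sucla2 to Suclg2 was 0.765 in TAN replicate 3 at 4AM, beside 0.670 to 0.683. The ratio of Idh3a to Idh2 was 1.32 in TAN replicate 1 at 12AM, the library with 1425 CPM of lymphocyte markers, beside 2.02 to 2.09. The mean log2 CPM of the 5 anaplerotic genes was 5.63 in AL replicate 1 at 8AM, beside 6.12 to 6.19. It was 5.61 in TAN replicate 1 at 4PM, beside 6.50 to 6.57. Me3 had 0 counts in both libraries. In the AL library Pcx (913 CPM) and Slc25a10 (463 CPM) were the highest of their group.

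The TAN effect differed between the time labels for Slc25a11 (edgeR adjusted p = 0.0197), Mdh2 (edgeR adjusted p = 0.0204) and Sdhb (edgeR adjusted p = 0.0384), the highest values being those at 4PM. This count is near the share of all genes, 8.98%.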

How the results depend on the processing

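Each result was recomputed with 1 choice changed. Of the effects of named members, 416 kept direction and side of the threshold, 73 lost and 3 gained the call, and 4 turned sign. Leaving out 1 library, 185 kept both, 76 lost and 1 gained the call, and 2 turned sign. The cause was not tested where none is given.

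The number of members called at 8PM, 0 in the report, was 1 with at least 10 counts in every library, with RLE size factors, with DESeq2, with limma voom, with lymphocyte markers as a term and with lymphocyte and muscle markers, and 4 with adipocyte markers. In that order these settings called 2226, 2440, 3197, 3713, 3978, 3772 and 4549 genes in all, against 752 higher and 1581 lower in the report. At 12PM (1 in the report) it was 2 with lymphocyte markers, 0 with muscle markers, 3 with adipocyte markers, 0 without the libraries high in muscle markers and 0 in a separate fit per time. Genes called in all were 93, 11, 107, 9 and 1 in turn, against 17 higher and 1 lower in the report. At 4PM (21) it was 0 with lymphocyte markers, 0 with lymphocyte and muscle markers and 3 with adipocyte markers, among 0, 2 and 241 genes in all. The report had 1306 higher and 1751 lower. At 12AM (0) it was 5 with DESeq2 and 1 with adipocyte markers, among 536 and 72 genes in all, against 25 higher and 5 lower in the report. In the mean over the day (6) it was 10 with DESeq2, 11 with adipocyte markers and 2 without the libraries high in muscle markers. Genes called in all were 1536, 1379 and 521, against 535 higher and 547 lower in the report. Members whose effect differed between times (3) numbered 10 with at least 10 counts in every library, 8 with RLE, 12 with DESeq2, 6 with limma voom, 1 with lymphocyte markers, 0 with lymphocyte and muscle markers, 0 without the libraries high in muscle markers and 6 without AL replicates 1 and 3 at 4AM. Genes called in all were 2283, 2116, 3999, 4439, 1351, 996, 39 and 3152 in that order, against 1793 in the report. Members varying over time in TAN mice (13) numbered 21 with DESeq2, 3 with lymphocyte markers, 4 with lymphocyte and muscle markers, 6 with adipocyte markers and 2 without the libraries high in muscle markers. Genes called in all were 7285, 3734, 3469, 4347 and 2559, against 4603 in the report. Those varying in AL mice stayed at 0 in all of these.

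Leaving out 1 library gave 0 members at 8AM and 4AM, 0 to 1 at 12PM, 2 to 21 at 4PM, 0 to 2 at 8PM (Aco1 and Got2 without TAN replicate 4) and 0 to 9 at 12AM. Leaving out 1 replicate number gave 1 to 9 in the mean over the day, 0 to 2 for a difference between times, 0 to 14 varying in TAN and 0 in AL mice. Genes called in all ran from 157 to 709, 2 to 982, 238 to 4240 and 2 to 12 in these fits. The ratio of Idh3a to Idh2 ranged from 0.37 to 0.48, that of Mdh1 to Mdh2 from -0.078 to 0.0025 (above 0 without replicate 2), Got1 to Got2 from -0.34 to -0.069 (permutation adjusted p = 0.0375 without replicate 4), Slc25a12 to Slc25a13 from -0.37 to 0.096 (above 0 without replicate 3) and Sucla2 to Suclg2 from 0.036 to 0.096. Signs turned for Slc25a13 at 12AM (0.0032 with lymphocyte markers, 0.025 with lymphocyte and muscle markers), Me3 at 4AM (0.62 without the libraries high in muscle markers, 0.70 without AL replicates 1 and 3; -1.61 to 0.62 leaving out 1 library) and Slc25a10 at 8PM (-0.073 to 1.03, below 0 without TAN replicate 4).

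Replicate numbers did not pair the libraries: of 24 pairs of same-numbered libraries, 5 had deviations correlated over 0.1 (median 0.0340). With the replicate block, 1 member was called at 12PM, 21 at 4PM, 6 in the mean over the day, 2 for a difference between times and 12 varying in TAN mice, and the ratio of Idh3a to Idh2 was 0.42 (permutation adjusted p = 0.0005). Depth limited Me3 and Slc25a13, whose libraries held as few as 0 and 2 counts.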
